A study of Mus musculus with 27 samples.

Results

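Fatty acid oxidation and ketone body metabolism were examined as a group of 33 genes in colonic epithelium of mice given TCDD, the most potent of the dioxins. The rule for the genes used name and function and no measured value, but it was set with earlier results of these data known. They hold 2 regulators, 2 enzymes of ketone body metabolism, 6 genes of fatty acid activation and the carnitine shuttle, 10 enzymes of mitochondrial β-oxidation, 3 of electron transfer from it, 4 peroxisomal genes, 2 thioesterases and 4 genes of fuel switching and lipid storage. All 33 are among the 46078 gene rows of the count tables, and all 33 passed the filter on low counts that left 16496 genes for testing. The mice were C57BL/6 males that received either sesame oil alone, the vehicle, or 1 of 8 TCDD doses: 30, 10, 3, 1, 0.3, 0.1, 0.03 or 0.01 μg/kg. Gavage was repeated at intervals of 4 days over 28 days, 7 times in all, starting at an age of 28 days, and the mice were 56 days old at the end. Each of the 9 groups held 3 mice, each mouse gave 1 library from scrapings of the epithelium, and tissue was taken between zeitgeber time 0 and 3. All mice, vehicle included, shared the strain, the sex, the age and the schedule. TCDD activates the aryl hydrocarbon receptor (AhR), a ligand-dependent transcription factor, and the design asks how each dose moved colonic expression away from vehicle.

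Fatty acids enter oxidation as acyl-CoA made by acyl-CoA synthetases, cross the mitochondrial membranes as acylcarnitines, and are shortened by repeated rounds of dehydrogenation, hydration, dehydrogenation and thiolysis. Peroxisomes run a similar chain with their own enzymes, and surplus acetyl-CoA can be turned into ketone bodies. PPARα, a nuclear receptor that binds fatty acids, drives many of these genes in liver and gut, with PGC-1α as a coactivator. Colonocytes are known for burning short-chain fatty acids from bacterial fermentation, butyrate above all.

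Each mouse gave between 9305441 and 14371035 gene counts, with a median of 11651026. Levels are given as CPM, counts scaled to library size, and counting error weighed most on *Acot1* and *Angptl4*, whose lowest counts were 15 and 13 reads. *Cyp1a1*, the classical AhR target, had at most 1 read in vehicle mice and 23969 to 29287 reads at 30 μg/kg, and its level was 2110, 2430 and 2070 CPM in mice 65, 66 and 67, the 3 mice of that dose. The 8 epithelial markers, such as *Epcam* and *Vil1*, summed to 8580 to 9470 CPM in vehicle mice, 7790 to 10500 CPM at 0.01 μg/kg, 10500 to 10900 CPM at 10 μg/kg and 9520 to 12100 CPM at 30 μg/kg, with all mice from 1 μg/kg upwards above all vehicle mice. The 4 hepatocyte markers summed to at most 16.8 CPM, and in every group except 0.01 μg/kg 1 of the 4 had no read in any of the 3 mice. The index barcodes of the libraries were reused, so the mice fall into a first index set of 16 mice, from vehicle to 0.3 μg/kg plus mouse 41 at 1 μg/kg, and a second of 11 mice, with mice 43 and 44 at 1 μg/kg and all mice from 3 to 30 μg/kg. Between vehicle and 3 to 30 μg/kg, dose and index set cannot be told apart. Clock genes also differed along the doses: 9 genes of the Dbp/Per phase summed to 177 to 193 CPM in vehicle mice, to 318 to 393 CPM at 0.3 μg/kg, to 744 to 875 CPM at 3 μg/kg and to 804 to 930 CPM at 30 μg/kg, with mouse 14 at 0.01 μg/kg at 702 CPM. At 1 μg/kg mouse 41 of the first index set was at 879 CPM and mice 43 and 44 of the second at 627 and 789 CPM. The 8 adipocyte markers summed to 8.07 to 32.8 CPM in vehicle mice and to 31.9, 72.3 and 264 CPM in mice 65, 66 and 67. Mice 9, 11 and 14 at 0.01 μg/kg were also above vehicle, at 160, 74.9 and 86.1 CPM, and each of the 8 markers was detected in some mice. Smooth muscle markers summed to 66.6 to 113 CPM in vehicle mice and to 284, 108 and 651 CPM in the same 3 mice of the highest dose. Adipocytes express several members strongly, among them *Acsl1*, *Angptl4* and *Pdk4*, and the values of mice 9 and 67 are therefore given beside these genes. In scrapings, fewer cells of a type and less RNA per cell cannot be told apart.

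In vehicle mice the members covered a wide span of levels once divided by exon length. The level per kb of exon ran from 0.747 CPM for *Acot1* to 75.6 CPM for *Ucp2*, with a median of 17 CPM. *Ucp2*, a mitochondrial carrier of the inner membrane, was followed by *Etfb* at 64.4 CPM per kb and *Acads*, the short-chain acyl-CoA dehydrogenase, at 60.3 CPM per kb, and the vehicle ranges of *Etfb* (57.7 to 70) and *Acads* (56.9 to 63.8) overlapped. *Hadh*, *Acadvl*, *Acadl*, *Acaa2*, *Slc25a20*, *Etfa* and *Cpt1a* came next, between 53.5 and 47.7 CPM per kb, and neighbours in this run overlapped between mice. Among the dehydrogenases the short-chain enzyme gene stood above *Acadvl* (52.6), *Acadl* (50) and *Acadm* (24), the very-long-, long- and medium-chain enzymes, with no overlap between mice. *Acadvl* and *Acadl* overlapped each other, and *Acadm* lay below both. These ranks per kb depend on the exon length, which joins all annotated exons of a gene, 3913 bases for *Acadm* and 2005 for *Acadl*. In CPM alone the vehicle mice of *Acadm* (89.3 to 98.1) and *Acadl* (94.9 to 108) overlapped. So did those of *Acads* (129 to 145) and *Acadvl* (129 to 151). The 4 peroxisomal genes ranged from 5.95 CPM per kb for *Eci2* to 19.7 for *Ehhadh*. The long-chain synthetase *Acsl5* (13.9 CPM per kb) was above *Acsl1* (3.02) with no overlap between mice. In all, 30 of the 33 members were above the median gene in mean CPM over the 27 mice, and the median member stood at percentile 83.1 of the genes tested.

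**Figure D1:**
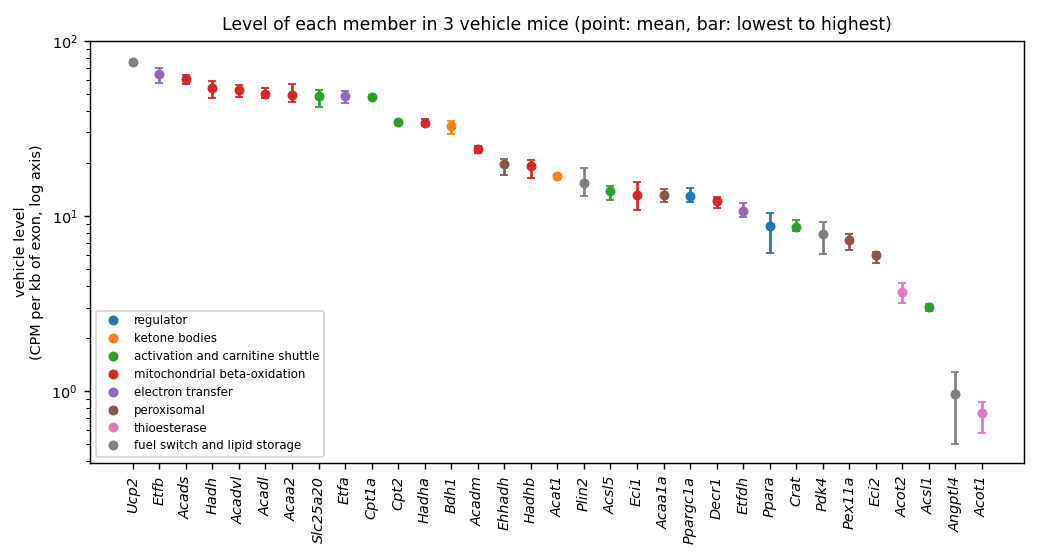
Level of each member in the 3 vehicle mice, as CPM per kb of exon on a log axis, ordered from high to low and coloured by role; points are means and bars run from the lowest to the highest mouse. *Ucp2*, *Etfb* and *Acads* stand highest, at 75.6, 64.4 and 60.3, and *Acot1* lowest at 0.747.

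At 30 μg/kg TCDD most members were higher than in vehicle mice, by modest factors. The log2 fold change was above 0 for 29 of 33 members, with a median of 0.27, against 49.6% of all 16496 genes and a median of -0.0022. The epithelial markers moved by a like amount, with 7 of 8 above 0, a median of 0.275 and 0 called, and their part in the members' values was not tested. A gene was called when its p from edgeR's quasi-likelihood fit, after Benjamini-Hochberg adjustment across the genes tested, was under 0.05 and its fold change at least 1.5. By this rule *Acsl1*, *Acaa2* and *Ucp2* rose and no member fell, 3 of 33, beside 1016 genes or 6.16% of all genes tested, so the called share of the members was near the background. By the adjusted p alone, 11 members were higher (*Acat1*, *Cpt1a*, *Cpt2*, *Acsl1*, *Crat*, *Acadl*, *Acaa2*, *Etfb*, *Eci2*, *Pex11a* and *Ucp2*), where 6.00% of all genes were, and 1 was lower (*Ppargc1a*), where 5.02% were. Every mouse at 30 μg/kg was above every vehicle mouse for 15 members, where this held for 14.5% of all genes, and below for 1 member, where it held for 15.2%. With 3 mice a group, an exact two-sided permutation test of 1 gene cannot go below p = 0.1, which these 16 members reached.

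The count of called members depended on single mice. Without mouse 65 it was 11 of 33, beside 6.45% of all genes tested, without mouse 67 it was 1 (*Acaa2*), beside 3.67%, and without vehicle mouse 3 it was 7, beside 4.36%. With an adipocyte score from the same 8 markers as a covariate 0 members were called in edgeR, beside 3.36% of all genes, and the median over the members was 0.20. Without mice 9 and 67, 2 were called (*Acaa2*, and *Ppargc1a* as lower), beside 4.18% of all genes, with a median of 0.22. With the clock score as a covariate 8 members were called (7 higher, 1 lower), beside 2.56% of all genes, and the median was 0.55. That fit rests on the spread of the score within dose groups, 85.5% of which lies in the 0.01 μg/kg group with mouse 14. Without this mouse it called 0 members and 4 of all 16843 genes. Its values for single members are therefore given only where ranges over alternatives, lost passes or turned directions are listed. No result is drawn from them. With the index set in the fit 2 were called (*Ucp2* and *Crat*), beside 4.43%, but only the 1 μg/kg group holds both sets, so that term rests on mouse 41 against mice 43 and 44.

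**Figure D2:**
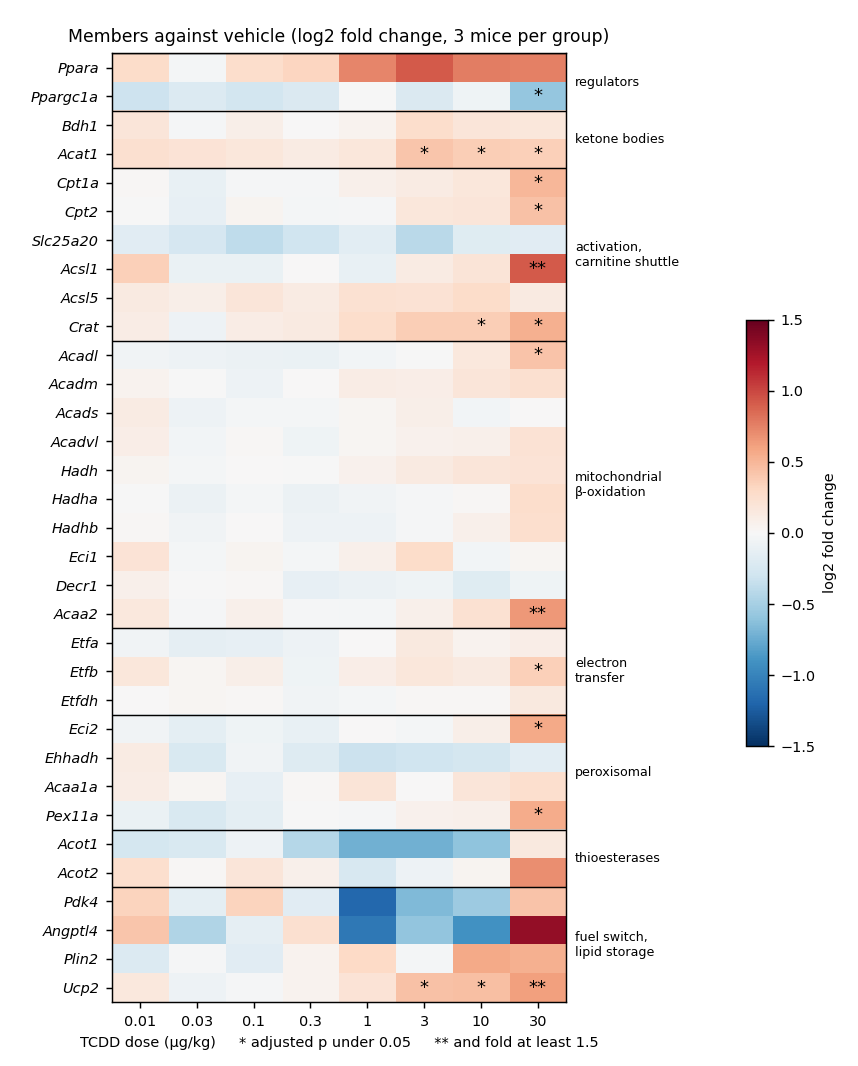
Log2 fold change of the 33 members (rows, grouped by role) at each TCDD dose against vehicle (columns, μg/kg), 3 mice per group; 1 star marks an adjusted p under 0.05 and 2 stars a fold change of at least 1.5 as well. Stars are absent up to 1 μg/kg, *Acat1* and *Ucp2* carry them from 3 μg/kg, and 12 members carry them at 30 μg/kg.

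*Ppara*, at chr15:85734983-85802819 (GRCm38, plus strand), encodes PPARα itself. Its level was 23.5, 40.1 and 37.5 CPM in the vehicle mice, 69.8, 50.9 and 70.9 CPM at 3 μg/kg, 49.9, 77.7 and 43.9 CPM at 10 μg/kg and 46.5, 62.5 and 61.1 CPM at 30 μg/kg. From 0.01 to 1 μg/kg it ran from 22.4 to 64.8 CPM. All mice from 3 to 30 μg/kg, and those at 1 μg/kg (45.9, 58 and 64.8 CPM), were above all vehicle mice. The change at 30 μg/kg was, on the log2 scale, 0.75 ± 0.25 (SE), with an adjusted p of 0.0502 that missed the threshold; the largest was 0.92 ± 0.25 at 3 μg/kg (adjusted p = 0.0602). Over the 9 dose ranks *Ppara* had the steepest slope of the members, 0.11 ± 0.02 log2 units per rank (adjusted p = 0.000559). Mouse 14 at 0.01 μg/kg, with the clock sum of 702 CPM, had 50.1 CPM beside 31.4 and 41 CPM in mice 9 and 11 of its group. The log2 fold change of *Ppara* at the highest dose was 0.33 with a term for the index set and 0.79 with the Hox score described below. *Ppara* was called in the Hox score fit, with RLE size factors (0.76, adjusted p = 0.0477), without the filter, in DESeq2 and without mouse 65 (0.88), 5 alternatives in all. Leaving out single mice gave 0.55 (vehicle mouse 2) to 0.89 (vehicle mouse 3), and adjusted p ran from 0.0014 to 0.96 over the alternatives.

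*Ppargc1a*, at chr5:51454250-51567726 (minus strand), encodes the coactivator PGC-1α and was the only member lower at 30 μg/kg at an adjusted p under 0.05. Its level was 94.7, 83.4 and 79.3 CPM in vehicle mice, 64.9, 67.9 and 87.7 CPM at 3 μg/kg, 101, 73 and 72.9 CPM at 10 μg/kg and 65.7, 46.4 and 59.6 CPM at 30 μg/kg. At the doses from 0.01 to 1 μg/kg *Ppargc1a* lay between 56.5 and 91.3 CPM. The 3 mice at 30 μg/kg were below all vehicle mice, while those at 3 and 10 μg/kg overlapped them. This made a log2 fold change at 30 μg/kg of -0.58 ± 0.16 (adjusted p = 0.0207), a fold of 1.498, and its slope over dose rank was -0.02 ± 0.02 (adjusted p = 0.413). In 7 alternatives it was called, among them limma voom (-0.59) and the fit with the Hox score (-0.59). The adjusted p missed 0.05 with the adipocyte score (-0.44), with the index set in the fit (-0.69), and without vehicle mouse 2 (-0.50), mouse 66 (-0.45) or mouse 67 (-0.61), and it ran from 0.00691 to 0.491 over the alternatives.

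*Acat1*, at chr9:53580522-53610382 (minus strand), encodes the mitochondrial acetoacetyl-CoA thiolase, which works in ketone body synthesis and breakdown. Its level was 63.2, 65.5 and 63.1 CPM in vehicle mice, 83.8, 85.2 and 87.6 CPM at 3 μg/kg, 78.1, 82.6 and 86.5 CPM at 10 μg/kg and 90.9, 79.4 and 75.2 CPM at 30 μg/kg. TCDD doses below 3 μg/kg gave 65.7 to 77.3 CPM. No mouse of the other groups was at or below the highest vehicle mouse. The log2 fold change was 0.42 ± 0.07 at 3 μg/kg (adjusted p = 0.00291), 0.37 ± 0.07 at 10 μg/kg (adjusted p = 0.00529) and 0.36 ± 0.07 at 30 μg/kg (adjusted p = 0.00254), all under 1.5-fold. At 30 μg/kg the adjusted p missed 0.05 in a fit of only the compared groups (0.36, adjusted p = 0.0555) and in both clock score fits, and it ran from 0.000125 to 0.998 over the alternatives. Within the second index set there was no further step, with -0.06 ± 0.07 from 3 to 30 μg/kg (adjusted p = 0.805).

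*Bdh1*, at chr16:31422280-31458901 (plus strand), encodes 3-hydroxybutyrate dehydrogenase, which interconverts acetoacetate and 3-hydroxybutyrate. Its level was 114, 129 and 137 CPM in vehicle mice, 150, 158 and 147 CPM at 3 μg/kg, 132, 155 and 144 CPM at 10 μg/kg and 141, 152 and 135 CPM at 30 μg/kg. From 0.01 to 1 μg/kg it ran from 115 to 162 CPM. The vehicle mice overlapped those at 10 and 30 μg/kg but not those at 3 μg/kg. The highest dose gave a log2 fold change of 0.17 ± 0.10, with a 95% interval from -0.01 to 0.36 (adjusted p = 0.253). Entering the adipocyte score gave 0.09.

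*Cpt1a*, at chr19:3322334-3385733 (plus strand), encodes the carnitine palmitoyltransferase of the outer mitochondrial membrane, the gate of long-chain fatty acid oxidation. Its level was 355, 376 and 362 CPM in vehicle mice, 419, 379 and 394 CPM at 3 μg/kg, 432, 432 and 367 CPM at 10 μg/kg and 392, 591 and 564 CPM at 30 μg/kg. At the doses from 0.01 to 1 μg/kg *Cpt1a* lay between 312 and 422 CPM. Mice 66 and 67 at 30 μg/kg were the highest of all 27 mice, and mouse 65 lay within the range of 3 and 10 μg/kg. The change at 30 μg/kg was, on the log2 scale, 0.50 ± 0.12 (adjusted p = 0.0109, 1.416-fold). It was 0.67 and called without mouse 65. The adjusted p missed 0.05 with the adipocyte score (0.38), with the index set (0.58), in a fit of only the compared groups (0.50) and without mouse 66 (0.39) or mouse 67 (0.44).

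Upstream sequence is shown for *Cpt1a*, which is central to the shuttle, and further below for *Acsl1* and *Ucp2*, the members called at 30 μg/kg against vehicle with an entry in the promoter table, so that the motif counts given later can be read on the letters. Each run holds the 250 bases before a RefSeq start site (GRCm38.p6), 5′ to 3′ on the gene's strand, with the AhR core GCGTG (or CACGC, its reverse complement) and the nuclear receptor core AGGTCA (or TGACCT) in capitals. For *Cpt1a* it covers chr19:3323051-3323300 on the plus strand and holds 1 nuclear receptor core.
Cpt1a upstream: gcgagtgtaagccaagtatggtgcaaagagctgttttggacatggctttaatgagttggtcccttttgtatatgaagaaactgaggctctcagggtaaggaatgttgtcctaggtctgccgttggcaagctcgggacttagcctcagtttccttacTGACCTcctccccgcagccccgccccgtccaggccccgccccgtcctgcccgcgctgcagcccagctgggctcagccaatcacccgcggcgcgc

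*Cpt2*, the inner membrane partner of *Cpt1a*, was at 82, 83.8 and 81.6 CPM in vehicle mice and at 92.6, 117 and 127 CPM in mice 65, 66 and 67. Its log2 fold change at the highest dose was 0.44 ± 0.12 (adjusted p = 0.0252). *Slc25a20*, the carnitine-acylcarnitine translocase between these enzymes, went the other way without passing the test. It was at 243, 254 and 203 CPM in vehicle mice and at 174, 243 and 207 CPM at 30 μg/kg, with a log2 fold change of -0.17 ± 0.14 and a 95% interval from -0.44 to 0.11. *Crat*, the carnitine acetyltransferase that buffers acetyl-CoA, was at 44, 50.8 and 45.6 CPM in vehicle mice, at 57.5, 62.1 and 61.9 CPM at 3 μg/kg and at 56.4, 76.9 and 70.8 CPM at 30 μg/kg. All its mice from 1 μg/kg upwards were above the vehicle mice, with a log2 fold change of 0.37 ± 0.10 at 10 μg/kg (adjusted p = 0.0396) and 0.54 ± 0.10 at 30 μg/kg (adjusted p = 0.00116).

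*Acsl1*, at chr8:46471037-46536051 (plus strand), encodes a long-chain acyl-CoA synthetase that activates fatty acids. Its level was 33.2, 29.9 and 32 CPM in vehicle mice, 43, 32.6 and 28.2 CPM at 3 μg/kg, 32.9, 41.7 and 34.4 CPM at 10 μg/kg and 41.9, 42.1 and 96.4 CPM at 30 μg/kg. TCDD doses below 3 μg/kg gave 25.5 to 45.2 CPM. Mouse 67 alone was far above every other mouse, and the next highest of all 27 was mouse 9 at 45.2 CPM, the other library rich in adipocyte markers. *Acsl1* rose at 30 μg/kg with a log2 fold change of 0.92 ± 0.23 (adjusted p = 0.0121, 1.893-fold). Without mouse 67 the value was 0.41 and no longer called, and it was 0.43 with the adipocyte score, 1.01 with the index set and 0.92 in a fit of only the compared groups, called in none of them. *Acsl5*, the synthetase more typical of intestinal epithelium, was at 59.7 to 72.3 CPM in vehicle mice and 67.8 to 81.5 CPM at 30 μg/kg, with a log2 fold change of 0.14 ± 0.09 (adjusted p = 0.348). The upstream run of *Acsl1* covers chr8:46470787-46471036 on the plus strand and shows 1 of the 3 AhR cores of that 300-base window, the others lying after the start site. A second *Acsl1* window, whose upstream part is chr8:46490716-46490965, holds 0 AhR cores and is not printed.
Acsl1 upstream: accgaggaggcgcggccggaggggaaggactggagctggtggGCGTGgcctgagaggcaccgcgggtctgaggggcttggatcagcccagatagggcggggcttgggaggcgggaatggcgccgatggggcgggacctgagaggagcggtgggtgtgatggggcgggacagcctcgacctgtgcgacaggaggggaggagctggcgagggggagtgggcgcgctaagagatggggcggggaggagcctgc

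Of the 10 enzymes of mitochondrial β-oxidation, 9 were higher at 30 μg/kg than in vehicle mice, with a median log2 fold change of 0.23. By the adjusted p, 2 of 10 passed as higher (*Acaa2* and *Acadl*), beside 6.00% of all genes, and 1 of 10 was called, beside 6.16%. *Acaa2*, the mitochondrial 3-ketoacyl-CoA thiolase that closes each round, was at 67.9, 86 and 67.9 CPM in vehicle mice, 76.5, 78.7 and 79.5 CPM at 3 μg/kg, 88, 87.7 and 83.4 CPM at 10 μg/kg and 91.3, 134 and 123 CPM at 30 μg/kg. From 0.01 to 1 μg/kg it ran from 60.6 to 97 CPM. All mice at 30 μg/kg were above all vehicle mice and all mice at 3 μg/kg. *Acaa2* rose at 30 μg/kg with a log2 fold change of 0.65 ± 0.16 (adjusted p = 0.0115, 1.57-fold). The call was lost without vehicle mouse 2 (0.60), vehicle mouse 4 (0.59) or mouse 66 (0.54), as it was with the adipocyte score (0.51) or the index set (0.78) in the fit, and it held without mice 9 and 67 (0.61).

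*Acadm*, at chr3:153922357-153944632 (minus strand), encodes the medium-chain acyl-CoA dehydrogenase. Its level was 94.2, 98.1 and 89.3 CPM in vehicle mice, 88.4, 106 and 107 CPM at 3 μg/kg, 116, 99.1 and 103 CPM at 10 μg/kg and 105, 112 and 114 CPM at 30 μg/kg. At the doses from 0.01 to 1 μg/kg *Acadm* lay between 84.1 and 106 CPM. The mice at 10 and 30 μg/kg were all above the vehicle mice, and those at 3 μg/kg overlapped them. This made a log2 fold change at 30 μg/kg of 0.24 ± 0.08 (adjusted p = 0.0611), and the slope was 0.03 ± 0.01 log2 units per rank (adjusted p = 0.00591).

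*Acadl*, the long-chain dehydrogenase, was at 94.9, 108 and 97.6 CPM in vehicle mice and at 115, 153 and 136 CPM at 30 μg/kg, a log2 fold change of 0.43 ± 0.11 (adjusted p = 0.0139). The other end of the group was *Decr1*, the 2,4-dienoyl-CoA reductase for unsaturated fatty acids, and *Acads*. *Decr1* had a log2 fold change of -0.06 (95% interval -0.25 to 0.12) and *Acads* of 0.01 (95% interval -0.19 to 0.21). *Hadha* and *Hadhb*, the subunits of the mitochondrial trifunctional protein, were at 0.27 ± 0.10 and 0.25 ± 0.14 and neither passed (adjusted p = 0.0865 and 0.234). For both, mice 67 and 66 were the highest of the 27 mice and mouse 14 the lowest. *Acadvl*, *Hadh* and *Eci1* lay between 0.03 and 0.22 and did not pass. *Acadvl* shares 42.9% of its exon bases with *Dvl2* on the opposite strand and *Hadhb* shares 18.14% of its 50-base stretches with another annotated gene, so their counts are uncertain.

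The electron transfer flavoproteins carry electrons from the dehydrogenases to the respiratory chain. *Etfb* was at 67.2, 81.5 and 76.2 CPM in vehicle mice and at 84.9, 98.9 and 103 CPM at 30 μg/kg, with a log2 fold change of 0.35 ± 0.10 (adjusted p = 0.0219). It overlaps a gene model on the same strand over 53.0% of its exon bases (*Gm45233*), so its count is uncertain. *Etfa*, its partner subunit, and *Etfdh*, the acceptor in the membrane, had log2 fold changes of 0.10 ± 0.08 and 0.14 ± 0.10 and did not pass (adjusted p = 0.466 and 0.369).

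Among the 4 peroxisomal genes 2 passed the adjusted p at 30 μg/kg as higher, beside 6.00% of all genes, and 2 did not. *Eci2*, at chr13:34977748-35027096 (minus strand), encodes an enoyl-CoA isomerase of peroxisomes that is also found in mitochondria. Its level was 29.9, 34.6 and 34.5 CPM in vehicle mice, 33.6, 31 and 32.8 CPM at 3 μg/kg, 34.2, 39.3 and 31.3 CPM at 10 μg/kg and 36.8, 56.9 and 52.8 CPM at 30 μg/kg. TCDD doses below 3 μg/kg gave 26.1 to 36.9 CPM. The mice at 30 μg/kg were above all vehicle mice and all mice at 3 μg/kg, with mice 66 and 67 far above mouse 65. The log2 fold change was 0.56 ± 0.13 against vehicle (adjusted p = 0.0090) and 0.59 ± 0.13 from 3 to 30 μg/kg (adjusted p = 0.0374, 1.503-fold). In edgeR it was the only member called from 3 to 30 μg/kg, a step within 1 index set, where 0.461% of all genes were called (0.606% by the adjusted p alone). The count was 6 without mouse 65, beside 0.845% of all genes, and 0 without any other single mouse of these groups. Against vehicle the adjusted p of *Eci2* missed 0.05 with the adipocyte score (0.42), with the index set (0.43), in a fit of only the compared groups (0.56) and without mouse 66 (0.44). *Pex11a*, which takes part in peroxisome division, was at 20.5, 25.2 and 23.7 CPM in vehicle mice and at 26.5, 35 and 40.7 CPM at 30 μg/kg, a log2 fold change of 0.56 ± 0.14 (adjusted p = 0.011).

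*Ehhadh*, at chr16:21761287-21787807 (minus strand), encodes the peroxisomal bifunctional enzyme, a textbook PPARα target. Its level was 51.1, 63.6 and 61.4 CPM in vehicle mice, 49.8, 43.7 and 49.3 CPM at 3 μg/kg, 50.3, 51.3 and 45 CPM at 10 μg/kg and 44.5, 56.6 and 56.4 CPM at 30 μg/kg. From 0.01 to 1 μg/kg it ran from 40.2 to 81.1 CPM. The mice at 3 μg/kg were below all vehicle mice and those at 10 and 30 μg/kg overlapped them. The highest dose gave a log2 fold change of -0.16 ± 0.19, with a 95% interval from -0.52 to 0.20 (adjusted p = 0.626). The value was -0.34 with the adipocyte score (adjusted p = 0.316). *Acaa1a*, at chr9:119339676-119350299 (plus strand), encodes the peroxisomal thiolase. It was at 53.2, 62.5 and 57.1 CPM in vehicle mice, 58.9, 57 and 56.9 CPM at 3 μg/kg, 80, 54.5 and 61.9 CPM at 10 μg/kg and 58.3, 74.6 and 72.6 CPM at 30 μg/kg, with overlap at each dose. At the doses from 0.01 to 1 μg/kg *Acaa1a* lay between 50.7 and 75.6 CPM. The change at 30 μg/kg was, on the log2 scale, 0.25 ± 0.12 (adjusted p = 0.197) and 0.56 with the index set in the fit, and 12.43% of its 50-base stretches are shared with *Acaa1b*.

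The thioesterases *Acot1* and *Acot2* release free fatty acids from acyl-CoA, the former in cytosol and the latter in mitochondria. They share part of their sequence, with 13.56% of the 50-base stretches of *Acot1* and 24.55% of those of *Acot2* shared with the other, so reads could be lost or moved between them. *Acot2* was at 6.99, 8.01 and 9.13 CPM in vehicle mice and at 6.90, 15.7 and 16.6 CPM in mice 65, 66 and 67, a log2 fold change of 0.70 ± 0.25 (adjusted p = 0.0747). *Acot1* was at 2.26, 3.37 and 3.14 CPM in vehicle mice and at 1.22, 3.68 and 4.91 CPM at 30 μg/kg (0.15 ± 0.37, adjusted p = 0.845). In both, mouse 65 was below all vehicle mice and mice 66 and 67 were above them.

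*Ucp2*, at chr7:100493337-100502020 (plus strand), had the smallest adjusted p of the members at 30 μg/kg. Its level was 510, 531 and 545 CPM in vehicle mice, 759, 689 and 695 CPM at 3 μg/kg, 675, 808 and 685 CPM at 10 μg/kg and 753, 797 and 873 CPM at 30 μg/kg. TCDD doses below 3 μg/kg gave 462 to 626 CPM. All mice from 1 μg/kg upwards (585 to 626 CPM at 1 μg/kg) were above all vehicle mice, as were those at 0.01 μg/kg (557 to 621 CPM), and the groups from 3 to 30 μg/kg overlapped each other. *Ucp2* rose at 30 μg/kg with a log2 fold change of 0.61 ± 0.08 (adjusted p = 6.05e-05, 1.528-fold). At 3 and 10 μg/kg it was 0.43 ± 0.08 (adjusted p = 0.00631) and 0.45 ± 0.08 (adjusted p = 0.00321), under 1.5-fold. Without mouse 67 the value at 30 μg/kg was 0.56, below the fold threshold at an adjusted p of 0.000524, with adjusted p from 4.56e-12 to 0.812 over all its alternatives. The call was also lost with the adipocyte score (0.51) as a covariate. The upstream run of *Ucp2* covers chr7:100493108-100493357 on the plus strand and holds 4 AhR cores, 2 of them side by side.
Ucp2 upstream: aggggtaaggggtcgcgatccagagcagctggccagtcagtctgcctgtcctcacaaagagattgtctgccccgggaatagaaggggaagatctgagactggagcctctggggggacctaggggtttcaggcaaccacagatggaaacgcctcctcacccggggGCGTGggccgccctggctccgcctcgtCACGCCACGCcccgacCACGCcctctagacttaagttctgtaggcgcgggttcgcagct

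*Angptl4*, a secreted inhibitor of lipoprotein lipase, and *Pdk4*, the kinase that shuts pyruvate out of the citric acid cycle, varied most between mice. *Angptl4* was at 1.77, 4.53 and 3.93 CPM in vehicle mice and at 1.29, 9.78 and 14.7 CPM in mice 65, 66 and 67, so that its highest mouse was 15.5 times its lowest over the series, and mouse 9 had 6.36 CPM. Its log2 fold change at the highest dose was 1.32 ± 0.61, the largest of the members, and did not pass (adjusted p = 0.16). *Pdk4* was at 21.3, 32.3 and 29.5 CPM in vehicle mice and at 14.6, 38 and 59.9 CPM at 30 μg/kg (0.43 ± 0.44, adjusted p = 0.573). Its highest mouse of all was mouse 9, at 64.6 CPM. At 1 μg/kg all mice were below all vehicle mice, at 13.3, 11.9 and 11.5 CPM, with a log2 fold change of -1.17 ± 0.47 (adjusted p = 0.385), and mouse 14 had 14.1 CPM. *Plin2*, a lipid droplet coat protein, was at 65.5, 51 and 45.5 CPM in vehicle mice and at 79.2, 72.1 and 82.5 CPM at 30 μg/kg, where no mouse overlapped (0.53 ± 0.23, adjusted p = 0.135), and its slope passed (0.08 ± 0.02 per rank, adjusted p = 0.00557).

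**Figure D3:**
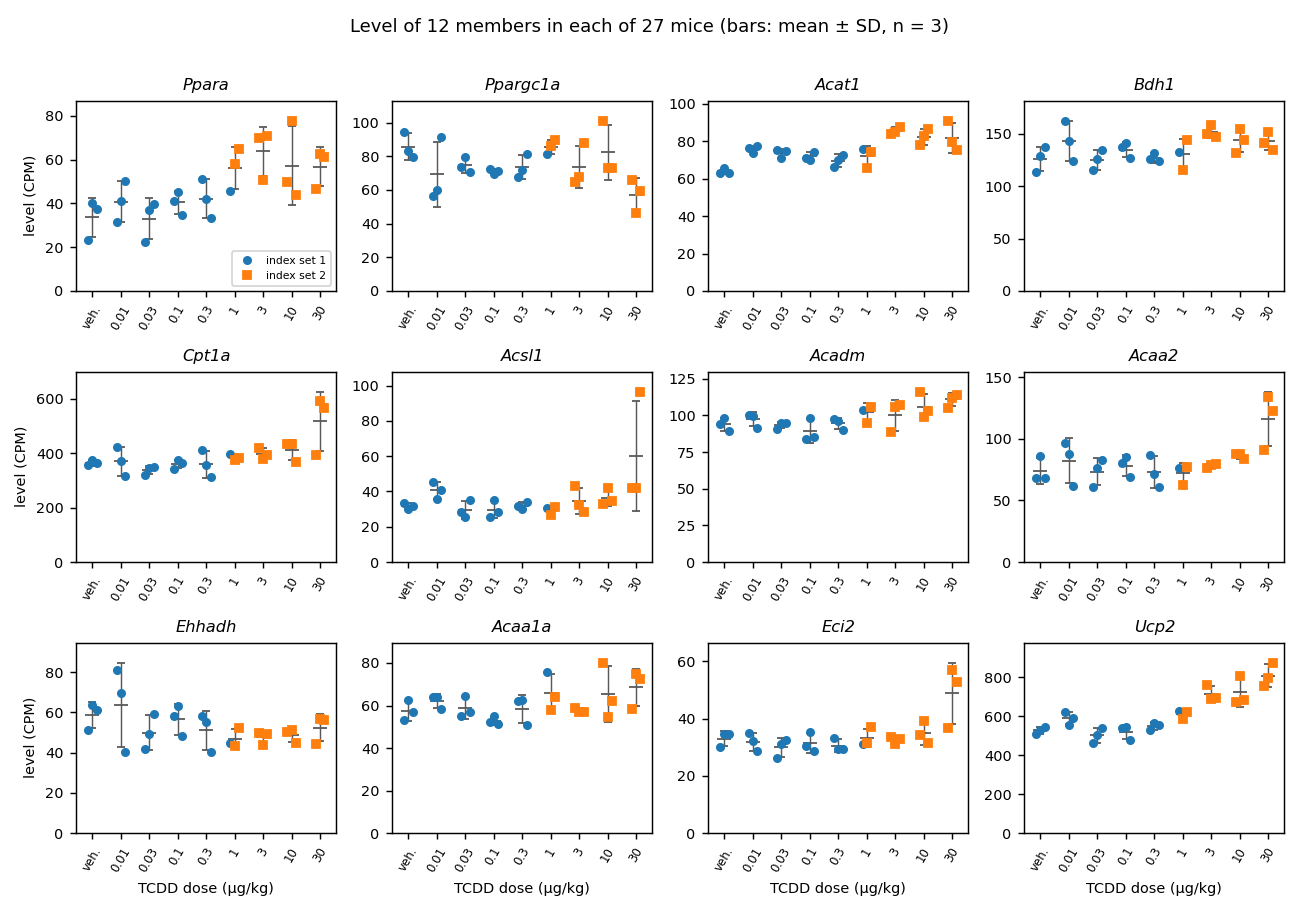
Level (CPM, linear axis from 0) of 12 members in each of the 27 mice by TCDD dose (μg/kg); circles are the first index set, squares the second, and bars are the mean ± SD of 3 mice. *Acat1* and *Ucp2* stand higher from 3 μg/kg on, the highest values of *Cpt1a*, *Acaa2* and *Eci2* are those of 2 of the 3 mice at 30 μg/kg, and *Acsl1* is highest in 1 mouse at 96.4 CPM.

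The members followed different courses over dose. By the adjusted p alone, *Acat1* and *Ucp2* differed from vehicle from 3 μg/kg, where 1.40% of all genes did, *Crat* from 10 μg/kg, where 3.23% did, and another 9 at 30 μg/kg only. By the call with the fold threshold, 0 members were called at 1, 3 and 10 μg/kg, beside 0.200%, 0.697% and 1.78% of all genes. At these doses 6, 8 and 8 members had an unadjusted p under 0.05 in edgeR, beside 9.80%, 16.0% and 17.8% of all genes. In turn limma voom called 0 at each, beside 0.145%, 0.576% and 1.47% of all genes, and DESeq2 called 0, 1 and 1, which was *Ppara*, beside 0.443%, 1.19% and 2.23%. By size of the estimate alone, whatever its error, the step from vehicle to 3 μg/kg was larger than that from 3 to 30 μg/kg for 13 members. The later step was larger for 20. The share over all genes was not computed, so nothing is read from this count. From 10 to 30 μg/kg 0 members and 0 of all genes (0%) were called in edgeR, and 12 members had an unadjusted p under 0.05, beside 6.00% of all genes. Over dose rank 14 members had a positive slope at an adjusted p under 0.05, where 11.8% of all genes did, and 0 a negative slope, where 11.6% did. The 14 were *Ppara*, *Acat1*, *Cpt1a*, *Cpt2*, *Crat*, *Acadl*, *Acadm*, *Hadh*, *Acaa2*, *Etfa*, *Eci2*, *Pex11a*, *Plin2* and *Ucp2*. With a term for the index set, or with the clock score as a covariate, 0 slopes of members passed, beside 11 and 39 of all genes.

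At the 4 doses from 0.01 to 0.3 μg/kg, where 0% of all genes were called, 0 of 132 comparisons of members with vehicle passed, and 5 had an unadjusted p under 0.05, beside 4.64% to 6.37% of all genes at each dose. The log2 fold changes ran from -0.45 to 0.41, both for *Angptl4*. The smallest adjusted p was 0.73, for *Slc25a20*.

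The 3 mice at 30 μg/kg differed among themselves across the members. Mouse 65 was the lowest of the 3 for 26 of 33 members, among them 14 of the 16 mitochondrial steps (the β-oxidation and electron transfer genes with *Cpt1a*, *Cpt2* and *Slc25a20*) and all 4 peroxisomal genes, while it was the lowest for 33.4% of all genes. Of 21 textbook PPARα targets among the members, 19 were lowest in mouse 65. Against vehicle at 30 μg/kg, 18 of these 21 were above 0 and 3 below, with a median of 0.268, beside 49.6% of all genes above 0. By the adjusted p 6 of the 21 were higher, beside 6.00% of all genes, and 2 were called, beside 6.16%. The median log2 deviation of the members from the vehicle mean was 0.12 in mouse 65, 0.33 in mouse 66 and 0.44 in mouse 67. In the 24 mice of the other groups it ran from -0.17 to 0.23, the highest being mouse 9. *Cyp1a1* in these mice (2110, 2430 and 2070 CPM) did not follow the same order. Adipocyte markers did (31.9, 72.3 and 264 CPM), while mouse 14, at 86.1 CPM, had a member median of -0.117, and the Hox score ran against it (3.17, -0.01 and -0.44); their part in the result was not tested beyond the covariate fits above.

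Mitochondrial steps and peroxisomal genes were compared next. At 30 μg/kg the median log2 fold change was 0.23 for the 16 mitochondrial steps. It was 0.40 for the 4 peroxisomal genes, and 0.25 for these without *Eci2*. Of the 4, *Pex11a* (0.56) takes part in peroxisome division and is not a step of oxidation, and *Eci2* (0.56) is also found in mitochondria. The oxidation enzymes *Ehhadh* (-0.16) and *Acaa1a* (0.25) did not pass. The summed level of the mitochondrial steps was 12.2 to 14.5 times that of the peroxisomal genes over the 27 mice. It was 12.4 to 13.7 times in vehicle mice and 12.7 to 14 times at 30 μg/kg. The ranges of vehicle and 30 μg/kg thus overlapped for this ratio.

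**Figure D4:**
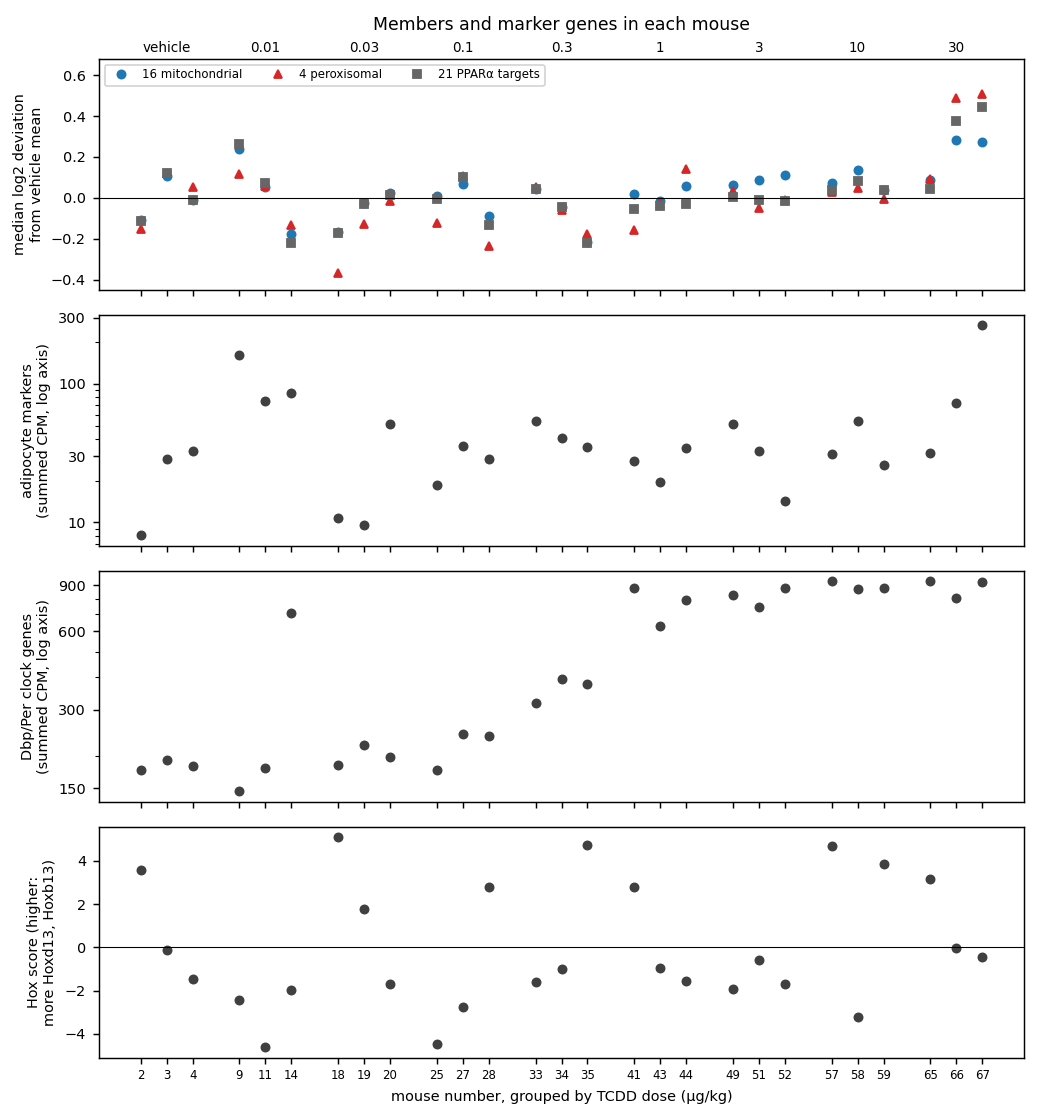
Each column of points is 1 mouse, grouped by TCDD dose; from the top, the panels show the median log2 deviation of mitochondrial, peroxisomal and PPARα target members from the vehicle mean, the summed adipocyte markers, the summed Dbp/Per clock genes (both CPM, log axes) and the Hox score (no unit). Mice 66 and 67 stand highest in the top panel, mouse 67 has 264 CPM of adipocyte markers, clock genes are higher from 0.3 μg/kg on, and the Hox score varies within most dose groups.

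The members also varied with the Hox genes of the scrapings. Hox genes of the 13 group are known as markers of the distal hindgut, and the scrapings differed in them within dose groups. A score was made as the first principal component of 25 Hox genes, which held 69.5% of their variance and rose with *Hoxd13* (loading 0.695) and *Hoxb13* (0.363). It was entered in the edgeR fit beside the 9 dose groups, a test chosen after the data were seen. Of the 33 members, 10 fell with the score at an adjusted p under 0.05, where 4.99% of all genes did, and 1 rose, where 5.29% did. The coefficient was below 0 for 26 of 33 members, with a median of -0.02 log2 units per unit of score against -0.0013 over all genes, and for 15 of the 16 mitochondrial steps.

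*Ppara* fell by 6.16% per unit of score (-0.09 ± 0.02 log2, adjusted p = 0.000171), or by 0.89 log2 units over the range of the scores. *Angptl4* (-0.21 ± 0.06, adjusted p = 0.0141) and *Acot1* (-0.10 ± 0.03, adjusted p = 0.0476) had the steepest slopes among the members that fell, followed by *Ppara* and *Ehhadh* (-0.05 ± 0.02, adjusted p = 0.021). *Hadh*, *Acadvl*, *Hadhb*, *Etfb*, *Eci2* and *Pex11a* passed with slopes between -0.03 and -0.04. *Plin2* was the 1 member that rose, by 6.22% per unit (0.09 ± 0.01, adjusted p = 0.000131). In the first index set alone 3 members passed (*Ppara* and *Angptl4* lower, *Plin2* higher), beside 3.20% of all genes lower and 3.42% higher. In the second 1 did (*Ppara*, lower), beside 0.470% of all genes lower and 1.14% higher, and its slope was -0.08 and -0.10 in the 2 sets. The count of 11 was 4 without mouse 18, 5 without mouse 28, 6 without mouse 2 or 35, 7 without mouse 20, 33 or 58, and between 8 and 15 without any other mouse, beside 7.85% to 10.8% of all genes over these fits. *Cpt1a*, *Acsl1*, *Acadm*, *Acat1*, *Bdh1* and *Ucp2* did not pass, with coefficients between -0.02 and 0.01.

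**Figure D5:**
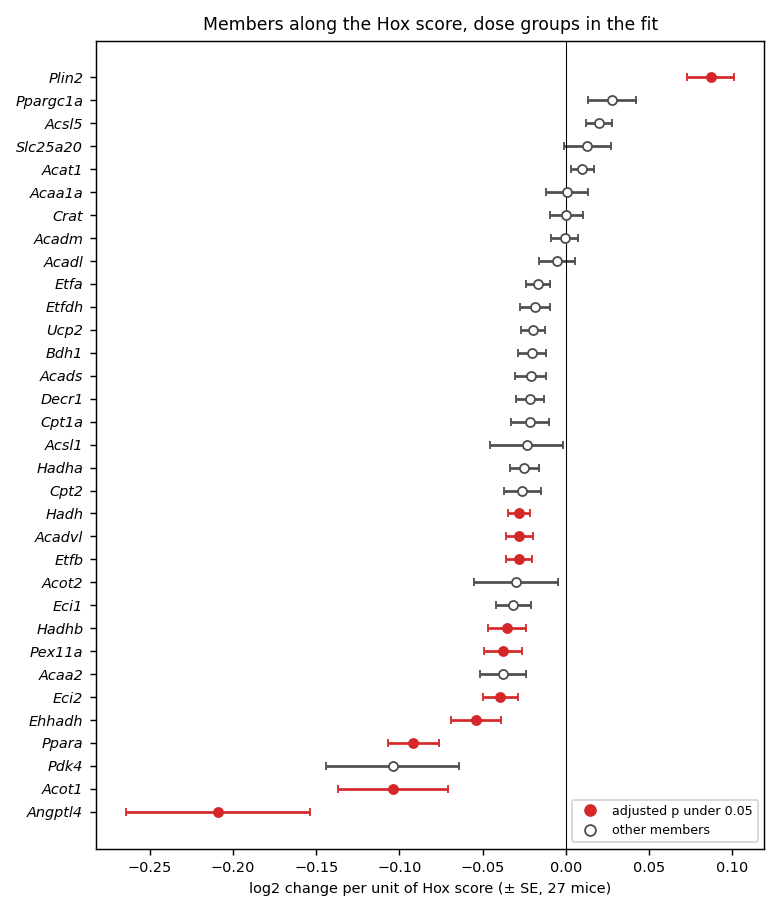
Change of each member per unit of Hox score (log2, horizontal axis, ± SE) from a fit of all 27 mice with the dose groups; filled points passed an adjusted p of 0.05. *Plin2* lies to the right at 0.09, *Angptl4* farthest to the left at -0.21, and 26 of 33 members lie below 0.

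RefSeq promoter windows of 300 bases (250 before and 50 after the start) matched 28 of the 33 members, with 30 windows. The AhR core GCGTG, on either strand, was in windows of 17 of the 28 genes and in 18 of the 30 windows, beside 32.4% of all 32851 windows of the table. This core holds a C followed by G, and the upstream runs of the members held 2 to 27 such pairs at 48.0 to 76.4% G and C. The share over all windows was not matched for this composition, so no enrichment is read from it. The nuclear receptor core AGGTCA was in windows of 4 genes (*Acadm*, *Acadvl*, *Cpt1a* and *Plin2*), beside 16.3% of all windows, and a direct repeat of that core with 1 base between its copies, the PPAR response element, in 0 of 28, beside 0.0396%. The E-box CACGTG, which holds neither of the other motifs, was in 1 gene (*Plin2*), beside 7.15%. *Ucp2* and *Acsl1* (in 1 of its 2 windows) are among the 17 genes with the AhR core and *Cpt1a* is not, as the runs printed above show. A match is a run of letters in this window only. *Acaa2*, *Acat1*, *Angptl4*, *Crat* and *Decr1* had no entry.

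A list of 44 further genes of the pathway was read beside the members, and 41 of them were tested. At 30 μg/kg 36 of the 41 had a log2 fold change above 0, with a median of 0.26, beside 49.6% of all genes above 0. Of the 41, 9 were higher and 0 lower by the adjusted p, where 6.00% and 5.02% of all genes were, and 5 were called, where 6.16% were. *Fabp2*, an intestinal fatty acid binding protein, rose from 135, 142 and 138 CPM in vehicle mice to 289, 362 and 305 CPM, a log2 fold change of 1.21 ± 0.16 (adjusted p = 6.05e-05). *Creb3l3*, a transcription factor that acts beside PPARα in fasting, rose from 7.08, 8.22 and 6.87 CPM to 15.4, 42.4 and 17.9 CPM (1.77 ± 0.36, adjusted p = 0.00293). *Slc22a5*, the carnitine importer, rose from 26.1, 32.8 and 32 CPM to 34.4, 61.6 and 54.4 CPM (0.73 ± 0.17, adjusted p = 0.00801), lowest again in mouse 65. *Slc27a2*, a fatty acid transporter, had 0.73 ± 0.23 (adjusted p = 0.041). *Fabp1*, the liver-type binding protein, was called on 1 to 3 reads per vehicle mouse and 8 to 64 reads per mouse at 30 μg/kg, and no fold is given. *Cyp4a10*, *Cyp4a14* and *Fgf21*, which PPARα agonists raise strongly in liver, were not tested, with at most 3 reads in any mouse.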

How the data were processed

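RNA was measured in 27 libraries, 1 per mouse, 3 in each of 9 dose groups. The authors deposited raw counts per gene and library, made per the labels with FastQC 0.11.3, Trimmomatic 0.33, TopHat2 2.1.0, SAMtools 1.2.0, HTSeq 0.6.1 and DESeq on GRCm38. The annotation and the strand setting are not given in the sources used here. The 5 lines of each count table that name no gene were left out: 29.1 to 33.3% of reads with no feature and 30.7 to 37.1% not unique were reported there. Of 46078 gene rows, 45143 matched a symbol by gene ID. Repeated lines were not found: over 27 pairs within groups, chi-square per degree of freedom was at least 5.83.

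Counts were fitted with edgeR 4.0.16 (R 4.3.3), a quasi-likelihood fit of all 27 mice with TMM factors after a filter at a minimum of 10 counts (filterByExpr), and p was adjusted over 16496 genes. CPM were computed with TMM library sizes. Slopes used dose rank. The mouse is the replicate; the labels do not say how animals were caged or processed, so p-values measure the spread between mice. Alternatives used limma 3.58.1, DESeq2 1.42.0, other filters and scalings, covariates and leaving out each mouse. Scripts were tested on simulated data. Members and lists were chosen with earlier results of these data known. By rule, every mouse is given for members called at any dose or from 3 to 30 μg/kg and for *Ppara*, *Ppargc1a*, *Cpt1a*, *Acadm*, *Ehhadh*, *Acaa1a*, *Bdh1* and *Acat1*, the extremes of each role for other members, and called genes for the rest of the pathway; members named beyond it were chosen after their values were seen. Promoter sequences are from RefSeq (GRCm38.p6), and gene positions from GENCODE M21 (GRCm38).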

Additional observations from a re-analysis of the deposited data

How the results depend on the processing

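Single members were followed under alternatives only where every mouse is given by rule, at 30 and from 3 to 30 μg/kg. *Cpt2*, *Crat*, *Acadl*, *Etfb* and *Pex11a* passed the adjusted p at 30 μg/kg and were not followed. Of these 384 values, 328 kept their direction and their call by adjusted p and fold together. Of the others, 27 lost the call, 22 gained it and 7 turned direction. Most of the members followed had no call to lose. At 30 μg/kg the call was lost 6 times for *Acaa2*, 6 for *Acsl1* and 5 for *Ucp2*. Each had 11 alternatives and 6 fits without 1 mouse. From 3 to 30 μg/kg *Eci2* lost it 10 times over 9 alternatives and 6 such fits. By the adjusted p alone, 45 of the 384 values lost their pass and 14 gained one. Those that turned were *Ehhadh* at 30 μg/kg (0.68 with the clock score), *Ehhadh* from 3 to 30 μg/kg (-0.030 with the adipocyte score), *Ppara* from 3 to 30 μg/kg (0.033 with the Hox score) and, at 30 μg/kg with the clock score and mouse 14 left out, *Bdh1* (-0.12), *Acadm* (-0.025), *Acaa1a* (-0.18) and *Acsl1* (-0.074), of which *Acsl1* is called in the reported fit. The 3 members called at 30 μg/kg became 12 by the adjusted p alone (beside 1818 of all genes), 5 with the Hox score (7.71% of all genes), 8 with the clock score (2.56%), 0 with it and mouse 14 left out, and 0 with the adipocyte score as a covariate, and 1 to 11 when single mice were left out. The 0 at 10 μg/kg became 3 by the adjusted p alone (3.23%) and 1 without the filter (1.18%), with the Hox score (2.67%) or in DESeq2 (2.23%). The 0 at 3 μg/kg became 2 by the adjusted p alone (1.40%) and 1 without the filter (0.590%), with the Hox score (0.940%), in a fit of only these groups (1.56%) or in DESeq2 (1.19%). The 0 at 1 μg/kg became 1 with the Hox score (0.364%) and 1 in a fit of only these groups (*Pdk4*, lower; 0.259%). At 1, 3 and 10 μg/kg the counts stayed at 0 to 0 when single mice were left out. The 14 slopes became 0 with the index set or the clock score in the fit, and 11 to 20 when single mice were left out. The 1 member called from 3 to 30 μg/kg became 0 with the adipocyte score, without the 2 libraries with most adipocyte marker RNA, in limma voom and in a fit of only these groups, 3 with the Hox score, 2 in DESeq2, and 0 to 6 when single mice were left out. The 11 Hox coefficients became 3 in the first and 1 in the second index set, and 4 to 15 when single mice were left out. The cause of these changes was not tested. The adipocyte score, the fit without those 2 libraries, the clock fit without mouse 14 and the alternatives for the Hox coefficient were chosen after seeing the data. No paired analysis was possible because no mouse number occurs in more than 1 group. With 3 mice a group, the low members *Acot1* and *Angptl4* had wide errors at 30 μg/kg (SE 0.373 and 0.605 log2 units). The smallest change that could be detected was not tested.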
